A study of Mus musculus with 35 samples.

Results

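Hormones of the gut epithelium were followed across adult mouse tissues through 10 genes, chosen by symbol from the 55356 genes counted. They are *Gcg*, *Pyy*, *Insl5*, *Sct*, *Cck*, *Sst* and *Nts*, which encode peptide hormones, *Tph1*, an enzyme of serotonin synthesis, and *Chga* and *Chgb*, the chromogranins of hormone granules. The study sequenced total RNA of C57BL/6J mice at the adult stage, after removal of ribosomal RNA, and the colon was compared here with the brain and the cerebellum. Of 29 RNA-seq libraries, 6 came from each of these 3 tissues (3 female and 3 male). Heart (3 female and 2 male), ovary (3) and testis (3) served as further tissues. The sources used here name no treatment or genotype beyond the strain, and do not say which animal gave which library or which stretch of the colon was taken. In the counts, *Cck*, *Sst*, *Chga* and *Chgb* were read as loci built from full-length Iso-seq transcripts (1, 1, 2 and 1 transcripts) and the other genes as ENSEMBL models. None of the 10 shared exon bases with another gene of that annotation on either strand.

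Scattered enteroendocrine cells of the gut epithelium store peptide hormones or serotonin in dense granules and release them in response to food, stretch or microbial products. Many of the same peptides are made by neurons, where they act as transmitters, and the chromogranins are packed into granules of both kinds of cell. L cells, the enteroendocrine cells that dominate the distal gut, make *Gcg* and *Pyy* products, while enterochromaffin cells make serotonin with *Tph1*; neurons use the related enzyme *Tph2*.

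Several of these genes are known targets of cAMP signalling, so the bases just upstream of their transcription starts were searched for the cAMP response element (TGACGTCA), the shorter motif TGACG within it and a TATA box (TATAAA), on both strands. The motifs were chosen after the expression values were seen. The sequences are RefSeq promoters of GRCm38.p6, read over 90 bases before the start, and all 10 genes matched. The full element was present in 2 of the 10 promoters, against 1.09% of 32851 promoters, and TGACG, which the full element contains, was present in 5, against 9.83%. The TATA box was found in 3, against 5.12%. The windows of 30 bases around a motif are given here for 7 genes, 5′ to 3′ on the strand of the gene and with the motif in capitals, to show which genes carry which element.
*Sst*, chr16:23890874-23890903, minus strand: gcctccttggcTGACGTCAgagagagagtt
*Chgb*, chr2:132781559-132781588, plus strand: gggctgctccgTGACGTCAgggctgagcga
*Chga*, chr12:102554884-102554913, plus strand: gggggcggtcctaTGACGtaatttcctggg
*Cck*, chr9:121495725-121495754, minus strand: tcctgctggactgCGTCAgcactgggtaaa
*Tph1*, chr7:46672557-46672586, minus strand: aaaaatgtgcgtgTGACGctgcgtgtgcta
*Gcg*, chr2:62483660-62483689, minus strand: gcctggagagcaTATAAAagcacagcaccc
*Sct*, chr7:141279144-141279173, minus strand: ggtcccggcagcTATAAAgcggtggcgcgg
In *Cck* the shorter motif lies on the opposite strand, as CGTCA. The window of *Chgb* lies inside its Iso-seq model, which starts further upstream than the RefSeq start, and all 90 bases of *Insl5* and 68 of those of *Nts* likewise lie inside their ENSEMBL models. *Insl5* held a TATA box, and *Pyy* and *Nts* held none of these letters in the 90 bases.

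Depth was 11742417 to 18890658 counted reads in the colon libraries, 24403774 to 36194255 in brain and 19075669 to 27087240 in cerebellum. The labels were checked with marker genes. The colon libraries held *Epcam* at 697 to 1099 CPM (counts scaled to 1e6 counts of the library), the brain and cerebellum libraries at no more than 0.507 CPM, and *Gabra6*, a gene of cerebellar granule cells, was at 119 to 260 CPM in cerebellum and at most 4.47 CPM in brain. Some libraries stood apart from their group. Female colon replicate 1 and male colon replicate 3 held *Sis* at 854 and 366 CPM and *Fabp6* at 95.1 and 122 CPM, both genes of small intestinal enterocytes, against at most 1.22 and 0.585 CPM in the other 4. The 6 genes of the small intestine list summed to 1519 and 1077 CPM in these 2 and to 2.82 to 9.23 CPM in the others, and none was at 0 throughout. Of the cerebellum libraries, female replicate 2, female replicate 3 and male replicate 3 held *Tph2*, a gene of brainstem serotonin neurons, at 20.1, 12.2 and 19.9 CPM against at most 2.53 CPM in the other 3, and female replicate 2 also held the posterior gene *Hoxb8* at 8.14 CPM. Female brain replicate 1 held the pituitary hormone genes *Gh* and *Prl* at 11.2 and 14.8 CPM, against at most 0.304 and 0.257 CPM in the other brain libraries.

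Levels are given as FPKM, that is CPM per kilobase of the gene's exons, so that genes of different length can be compared. The 10 genes fell into those highest in colon, those highest in brain and 1 that was near the limit of detection everywhere. In brain, and likewise in cerebellum, 6 of the 10 exceeded 3 counts in every library. The same 6 did so in both, namely *Cck*, *Sst*, *Nts*, *Tph1*, *Chga* and *Chgb*. In colon, 9 exceeded it, all but *Insl5*. In these bulk libraries, fewer cells that express a gene and less of its RNA per cell cannot be told apart.

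**Figure D1:**
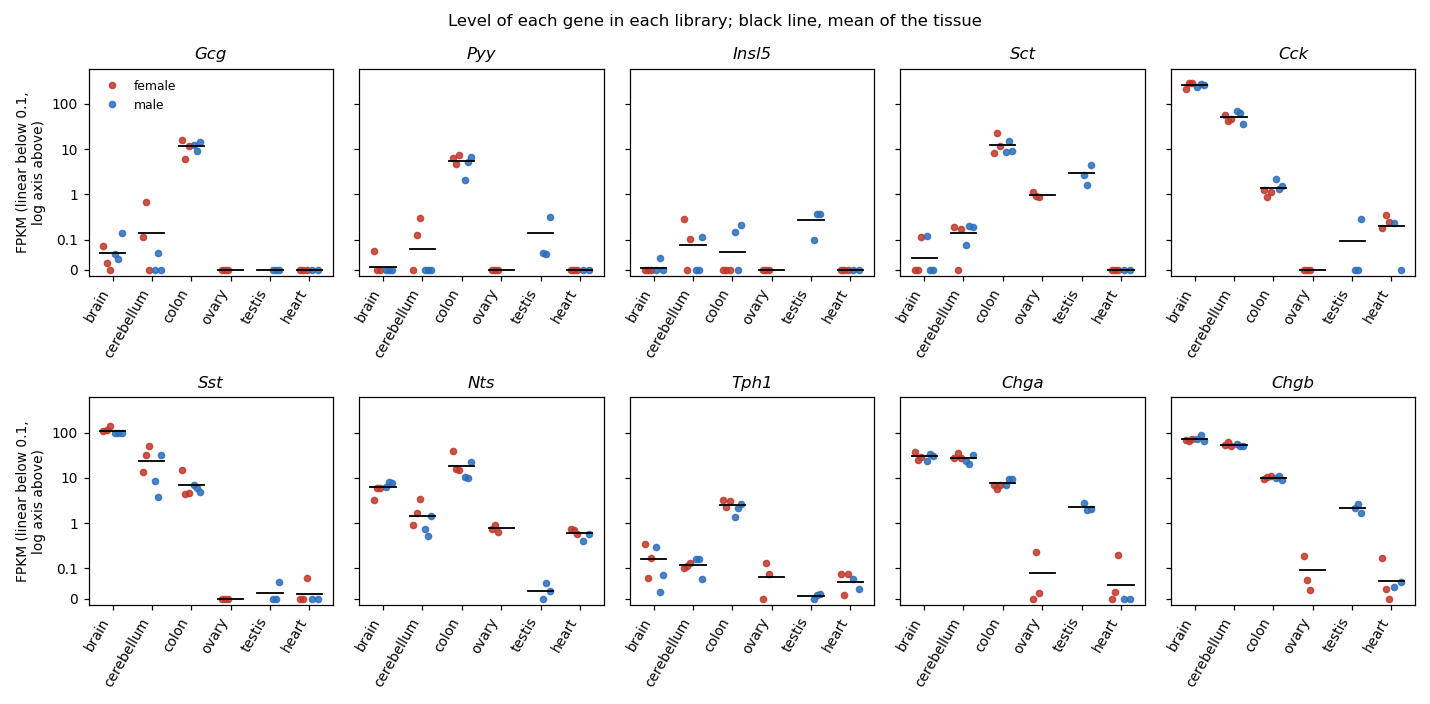
Level of each of the 10 genes in each of the 29 libraries (FPKM on the vertical axis, linear below 0.1 and logarithmic above, tissues on the horizontal axis). Points are libraries, red for female and blue for male, and the black line is the tissue mean. *Gcg*, *Pyy*, *Sct* and *Tph1* stand highest in colon, *Cck* and *Sst* in brain, and *Insl5* stays under 0.4 FPKM in all libraries.

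*Gcg* encodes proglucagon, the precursor of GLP-1 and GLP-2 in L cells and in a few neurons of the hindbrain. Its counts were 276, 156 and 259 in the female and 338, 255 and 282 in the male colon libraries. Brain held 3, 1 and 0 in females and 2, 2 and 5 in males, and cerebellum 4, 26 and 0 in females and 0, 2 and 0 in males. No colon library overlapped a brain or cerebellum library, and the 26 counts came from the cerebellum library with *Hoxb8*. Heart, ovary and testis were at 0 counts in every library. The mean level was 11.5 ± 3.47 FPKM in colon (SD, n = 6).

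*Pyy* encodes peptide YY, which L cells release together with the proglucagon products. Colon held 48, 51 and 69 counts in females and 25, 62 and 57 in males, a mean of 5.46 ± 1.92 FPKM (SD, n = 6). A single count was found over the 6 brain libraries. Cerebellum held 7 counts, all in the 2 female libraries with *Tph2* over 10 CPM. Testis held 1, 1 and 6 counts. *Insl5*, a relaxin-like hormone known from L cells of the distal colon, was counted 4 times over the 6 colon libraries (0, 0 and 0 in females, 2, 0 and 2 in males). It was highest in testis, with 2, 8 and 8 counts or 0.271 ± 0.151 FPKM (SD, n = 3), but the testis libraries overlapped those of cerebellum. At these counts *Insl5* was not detectable above 3 counts in any colon library.

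*Sct* encodes secretin, the duodenal hormone that drives bicarbonate secretion and that enterochromaffin cells also make. Counts were 61, 249 and 112 in female and 105, 185 and 78 in male colon. They came to 12.6 ± 5.60 FPKM, with a range of 8.05 to 22.6 FPKM (SD, n = 6). Brain held 0 to 2 counts and cerebellum 0 to 3 counts per library. *Sct* was also present in the gonads, at 2.89 ± 1.40 FPKM in testis (49, 32 and 87 counts) and 0.978 ± 0.123 FPKM in ovary (13, 15 and 16 counts, SD, n = 3 each). The colon libraries did not overlap those of testis, nor testis those of ovary.

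*Nts* encodes neurotensin, a peptide of ileal N cells and of many neurons. In colon it reached 38.6, 16.0 and 15.1 FPKM in females and 10.3, 10.1 and 22.5 FPKM in males. Brain held 3.18, 5.90 and 5.97 FPKM in females and 6.33, 8.15 and 7.81 FPKM in males, and cerebellum ranged from 0.508 to 3.34 FPKM with a median of 1.17. It was thus the one peptide gene that was highest in colon and also clearly present in brain, and the colon libraries lay above all brain libraries. The 2 highest colon values were those of the libraries with *Sis* and *Fabp6*. The other 4 had a mean of 12.9 ± 3.10 FPKM (SD).

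*Cck* encodes cholecystokinin, made by I cells of the upper small intestine and by cortical and hippocampal neurons. It reached 208, 292 and 293 FPKM in female and 236, 280 and 254 FPKM in male brain, where its mean ranked 144th of 55356 genes. Cerebellum held 36.0 to 70.5 FPKM with a median of 50.5. In colon it was counted 10, 10 and 11 times in females and 28, 17 and 14 times in males, or 1.39 ± 0.457 FPKM (SD, n = 6). The libraries of brain, cerebellum and colon did not overlap.

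*Sst* encodes somatostatin, the inhibitory peptide of gut D cells and of a class of cortical interneurons. Brain held 106, 114 and 138 FPKM in females and 99.0, 99.3 and 101 FPKM in males. Colon held 14.8, 4.35 and 4.70 FPKM in females and 6.90, 5.88 and 4.83 FPKM in males. Cerebellum spread most, from 3.84 to 49.7 FPKM, and overlapped colon but not brain. The 3 cerebellum libraries with *Tph2* over 10 CPM held 31.8 to 49.7 FPKM and the other 3 held 3.84 to 13.8 FPKM.

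*Tph1* encodes the rate-limiting enzyme of serotonin synthesis outside the brain. Its counts were 236, 235 and 286 in female and 161, 249 and 218 in male colon, or 2.47 ± 0.701 FPKM (SD, n = 6). Brain ranged from 5 to 55 counts and 0.0224 to 0.346 FPKM, a spread of more than 10 times between libraries, and cerebellum from 0.0661 to 0.161 FPKM. Colon did not overlap either. The most *Tph1* counts were in female brain replicate 1, the library that held *Gh* and *Prl*, and in male brain replicate 1 (55 and 47). The pineal gland also makes serotonin with *Tph1*, and the 4 genes of the pineal list summed to 1.83 and 0.895 CPM in these libraries, against 0.105 to 0.330 CPM in the other 4 of brain. *Lhx4* gave most of these sums, with 38 and 16 counts. *Aanat*, a defining gene of the pineal, was also highest in these libraries among those of brain, at 0.350 and 0.233 CPM against at most 0.111 CPM, on 9 and 6 counts, and *Asmt* was at 0 and 0.0389 CPM. Outside the brain, *Aanat* reached similar or higher levels, at 0.439 and 0.583 CPM in female heart replicates 2 and 3 and 0.339 CPM in female colon replicate 3. In cerebellum the list summed to 0.456 to 2.10 CPM. The part of pineal tissue in the *Tph1* counts was not tested.

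*Chga* and *Chgb* encode chromogranins A and B, acidic proteins that help to build the granule. *Chga* held 37.0, 24.8 and 28.4 FPKM in female and 23.8, 34.0 and 31.2 FPKM in male brain. In cerebellum it ranged from 20.02 to 35.5 FPKM, and in colon from 5.80 to 9.40 FPKM. *Chgb* was the higher of the pair in every brain, cerebellum and colon library except male colon replicate 3. It held 66.0 to 90.9 FPKM in brain, 50.7 to 62.3 FPKM in cerebellum and 8.78 to 11.3 FPKM in colon. Testis had 2.26 ± 0.470 FPKM of *Chga* and 2.19 ± 0.500 FPKM of *Chgb* (SD, n = 3), below every colon library and above every heart and ovary library.

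The 7 peptide genes together summed to 376 ± 44.7 FPKM in brain, 76.8 ± 11.8 FPKM in cerebellum and 56.6 ± 15.1 FPKM in colon (SD, n = 6 each). In brain *Cck* made up 69.2% and *Sst* 29.2% of that sum, and in cerebellum 68.5% and 29.1%. The colon sum was spread over more genes. *Nts* contributed 31.3%, *Sct* 23.6%, *Gcg* 20.7%, *Sst* 11.9%, *Pyy* 9.69% and *Cck* 2.65%. The order of the first pair turned in the 4 colon libraries without *Sis* and *Fabp6*, where *Sct* averaged 14.6 ± 6.00 and *Nts* 12.9 ± 3.10 FPKM (SD). That of *Sct* and *Gcg* turned with the longest transcript as the length, at colon means of 13.1 and 15.8 FPKM. Tau, an index that is 0 for equal means in the 6 tissues and 1 for a gene found in a single tissue, was 0.997 for *Gcg*, 0.992 for *Pyy*, 0.966 for *Tph1*, 0.959 for *Cck*, 0.945 for *Sst*, 0.936 for *Sct* and 0.903 for *Nts*. It was lowest for the granule genes, at 0.816 for *Chgb* and 0.748 for *Chga*. For *Insl5* it was 0.890, on levels near the limit of detection. Tau depends on the scale. Computed from log2(FPKM + 1), it was lower for all 10 genes, at 0.733 for *Nts* and 0.604 for *Chga*. *Sct*, at 0.830, then stood above *Cck* and *Sst*, at 0.818 and 0.790.

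To ask which of these genes differ between gut and brain, the quasi-likelihood test of edgeR was run on the counts of all 29911 genes that passed a filter on low counts, and a gene was called at a Benjamini-Hochberg adjusted P under 0.05. Of the 10 genes, 9 passed the filter and *Insl5* did not. *Gcg* and *Pyy* passed it on their colon counts alone, so they had to differ. Their sizes are given as a description, with no test, and they are left out of the counts of called genes, which cover the other 7. Log2 differences are colon minus the other tissue, with their standard error (SE). The comparisons with brain and with cerebellum share the colon libraries.

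Against brain, 3 of the 7 were higher in colon and 4 lower. Over all genes tested, 29.6% were called higher and 38.7% lower, 68.3% in all, with a median log2 difference of -0.12. A call by itself therefore separates these genes little from the rest, and the sizes carry more. The fitted log2 difference was 8.35 ± 0.80 for *Pyy* and 7.62 ± 0.67 for *Gcg*. *Sct* was higher by 7.98 ± 0.60 on the log2 scale (edgeR adjusted P = 3.99e-11), *Tph1* by 3.82 ± 0.51 (adjusted P = 2.48e-07) and *Nts* by 1.42 ± 0.31 (adjusted P = 0.000216). *Cck* fell by 7.74 ± 0.29, *Sst* by 4.16 ± 0.41, *Chgb* by 2.98 ± 0.22 and *Chga* by 2.13 ± 0.24 from brain to colon (adjusted P = 5.54e-17, 5.59e-09, 6.50e-12 and 2.92e-08).

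For the genes with few brain counts, the fitted value depends on the small count that edgeR adds. The ratio of pooled CPM was therefore computed with an exact Clopper-Pearson interval, which covers counting error only. *Gcg* was 214 times higher in colon than in brain (95% interval 125 to 402), *Sct* 350 times (136 to 1289) and *Pyy* 554 times, with an interval of 98.6 to 21935 since brain held 1 count. Single libraries weighed on these fits. Without female brain replicate 1 the log2 difference was 8.23 for *Gcg* and 9.21 for *Pyy*. It was 9.22 for *Sct* without female brain replicate 3 and also without male brain replicate 1, the only brain libraries with *Sct* counts, and 4.49 for *Tph1* without male brain replicate 1. *Sct* and *Tph1* remained called. Without the 2 colon libraries that held *Sis* and *Fabp6*, *Nts* was higher than in brain by 0.92 (adjusted P = 0.00874).

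**Figure D2:**
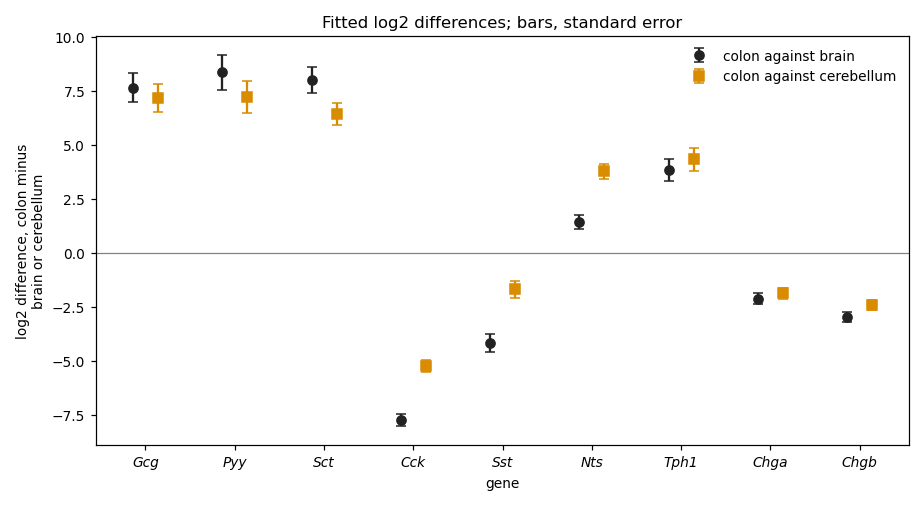
Fitted log2 difference of colon minus brain (black circles) and colon minus cerebellum (orange squares) for the 9 tested genes, with bars of 1 standard error. *Pyy*, *Sct* and *Gcg* lie above 6 in both, *Tph1* near 4, *Nts* at 1.42 and 3.76, and the granule genes and *Sst* and *Cck* lie below 0.

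Against cerebellum, *Sct*, *Tph1* and *Nts* were again higher in colon and the same 4 genes lower, where 28.9% of all genes were called higher and 37.3% lower, 66.1% in all, with a median of -0.10. The log2 difference was 7.20 ± 0.75 for *Pyy* and 7.15 ± 0.66 for *Gcg*. *Sct* was higher by 6.41 ± 0.52, *Tph1* by 4.31 ± 0.52 and *Nts* by 3.76 ± 0.34 on the log2 scale (edgeR adjusted P = 2.06e-10, 6.21e-08 and 3.87e-10). *Cck* fell by 5.26 ± 0.27, *Chgb* by 2.42 ± 0.22, *Chga* by 1.88 ± 0.24 and *Sst* by 1.70 ± 0.39 (adjusted P = 2.71e-14, 2.86e-10, 2.25e-07 and 0.000515). Against the mean of both brain regions, 3 of the 7 were higher and 4 lower (31.2% and 39% of all genes, 70.2% together). The largest of these differences were 7.20 ± 0.42 for *Sct* and -6.50 ± 0.27 for *Cck*.

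The difference in *Sst* rested on the 3 cerebellum libraries with *Tph2* over 10 CPM. Without them, in a fit chosen after the data were seen, it was -0.37 with an adjusted P of 0.347, and without male cerebellum replicate 3 alone it was -1.05 (adjusted P = 0.00492). Among the 3 libraries left, *Sst* averaged 8.74 ± 4.99 FPKM (SD), beside 6.90 ± 3.96 FPKM in the 6 of colon. *Nts* was also higher in the libraries with *Tph2*, at 1.41 to 3.34 against 0.508 to 0.930 FPKM, and its difference from colon was 4.65 without them. *Chga* was higher there too (28.1 to 35.5 against 20.02 to 27.0 FPKM) and *Cck* lower (36.0 to 45.3 against 55.7 to 70.5 FPKM), and both remained called in colon against cerebellum without them. The difference in *Pyy* was 9.27 without these libraries, which held all its cerebellum counts. That in *Gcg* was 8.27 without female replicate 2 and 8.46 without male replicate 2 of cerebellum. Whether a part of the brainstem in these libraries set the levels was not tested.

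Between brain and cerebellum, 26.1% of all genes were called, 15.3% as higher in brain and 10.8% as lower. *Cck* was higher in brain by 2.48 ± 0.21, *Sst* by 2.46 ± 0.37 and *Nts* by 2.34 ± 0.33 on the log2 scale (edgeR adjusted P = 3.89e-09, 2.35e-05 and 4.86e-06). *Chgb* was higher by 0.56 ± 0.21, just past the threshold at an adjusted P of 0.0477, and it passed in only 4 of 20 alternative fits, with adjusted P values of 0.000131 to 0.266. *Chga*, at 0.25 ± 0.23 with an adjusted P of 0.501, did not pass. Nor did *Gcg* (-0.47 ± 1.23), *Sct* (-1.57 ± 0.83) and *Tph1* (0.49 ± 0.51), at adjusted P values of 0.902, 0.181 and 0.5682, or *Pyy*, with 1 and 7 counts. *Gcg* turned to 0.65 without female and 0.84 without male cerebellum replicate 2, *Tph1* to -0.18 without male brain replicate 1, and none of these passed. *Sct* moved to -2.81 without female brain replicate 3 and also without male brain replicate 1, short of the threshold at adjusted P values of 0.0606 and 0.0548. *Gcg* was at -1.08 without female brain replicate 1 (adjusted P = 0.663). Without the 3 cerebellum libraries with *Tph2*, the difference was 3.62 for *Sst* and 3.06 for *Nts*, and 3.11 for *Sst* without male cerebellum replicate 3 alone.

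**Figure D3:**
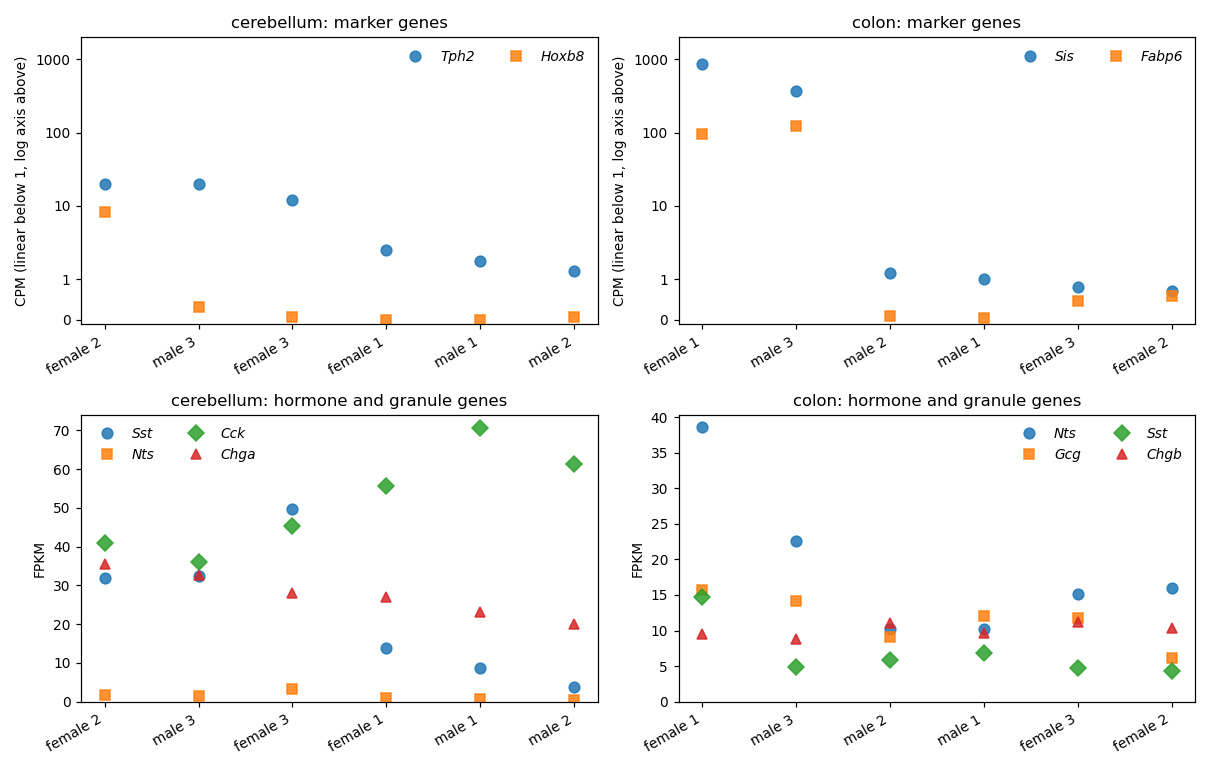
Marker genes (upper panels, CPM, linear below 1 and logarithmic above) and hormone or granule genes (lower panels, FPKM) in the 6 cerebellum and the 6 colon libraries, each ordered by its first marker. The 3 cerebellum libraries with *Tph2* over 10 CPM have *Sst* at 31.8 FPKM or more, and the 2 colon libraries with *Sis* have the 2 highest *Nts* and *Gcg* values.

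The colon libraries with *Sis* and *Fabp6* also carried the highest *Gcg*, at 15.7 and 14.2 against 6.11 to 12.0 FPKM in the other 4, and the lowest *Chgb*, at 9.45 and 8.78 against 9.72 to 11.3 FPKM. Apart from *Nts*, given above, the other 7 genes overlapped. *Sst* stood out in female colon replicate 1 alone. When both libraries were left out, the 7 genes kept their calls in colon against brain and colon against cerebellum, and the differences of *Gcg* were 7.41 and 6.94. Whether small intestine in these libraries set the values of *Nts* and *Gcg* was not tested. Of the markers of the pancreas, which also expresses *Gcg*, *Sst* and *Pyy*, the 5 genes of the beta cell list summed to 0.117 to 1.45 CPM in colon, with *Ins1* and *Ins2* at 0 in all 6 libraries. The 8 acinar genes summed to 11.5 to 23.5 CPM there, above the libraries of the other 5 tissues, and *Cela1* gave most of the sum (133 to 430 counts). At 0 in all 6 colon libraries were *Cela2a*, *Pnlip* and *Amy2b*. The part of pancreatic RNA in these values was not tested.

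The proteins that process and store prohormones were mostly lower in colon. Of 18 count rows of 17 genes, 15 were lower than in brain and 2 higher, where 38.7% and 29.6% of all genes were, and the median log2 difference was -4.85, beside -0.12 over all genes. Against cerebellum, 16 were lower and 2 higher (37.3% and 28.9% of all genes), with a median of -3.56, beside -0.10. Without the cerebellum libraries with *Tph2*, 13 were lower. The 2 rows higher than brain are both of *Cadps2*, whose locus carries other genes, and its counts are uncertain. Neither was called without the colon libraries with *Sis* and *Fabp6* (adjusted P = 0.224 and 0.0902). The convertase *Pcsk2* was lower, at -7.14 ± 0.23 and -4.81 ± 0.21, and *Pcsk1*, the convertase that releases GLP-1 in L cells, at -2.21 ± 0.28 and -1.07 ± 0.28. Its difference from cerebellum was -0.61 without the libraries with *Tph2* and was then not called (adjusted P = 0.143). *Scg3*, a granin that binds chromogranin A, stood at -6.57 ± 0.29 and -7.33 ± 0.30, the convertase inhibitor gene *Pcsk1n* at -6.46 ± 0.25 and -5.90 ± 0.24, and the granin-like *Vgf* at -8.16 ± 0.42 and -5.72 ± 0.41. *Pam*, which amidates peptides, was lower than in brain (-0.46 ± 0.13) and higher than in cerebellum (0.87 ± 0.13), and *Qpct*, which forms N-terminal pyroglutamate, was higher than in cerebellum by 1.42 ± 0.21. The list is also expressed by neurons. The neuron markers, of which 6 of 6 were called lower in colon, had medians of -8.36 and -7.54. They summed to 22.5 to 35.7 CPM in colon, 2840 to 3569 CPM in brain and 1755 to 1969 CPM in cerebellum, and none was at 0 throughout. A list of enteric neuron markers was mixed. Of its 10 count rows, 5 were higher and 4 lower than in brain (29.6% and 38.7% of all genes), with a median of -0.11. Against cerebellum 2 were higher and 4 lower (28.9% and 37.3%), with a median of -0.50. The part that the share of neurons has in the granule genes was not tested.

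Of the other gut peptides on the list, 14 of 18 were tested. Against brain 4 were higher and 6 lower, where 29.6% and 38.7% of all genes were. Against cerebellum 6 were higher and 5 lower, beside 28.9% and 37.3% of all genes. The epithelial peptide *Guca2a* (guanylin) had 4905 to 17269 counts per colon library and at most 2 in brain or cerebellum. *Guca2b* (uroguanylin) had 86 to 205 counts in colon and a single count over brain and cerebellum. Both passed the filter on their colon counts alone, so they had to differ. They are among the genes counted as higher, so those counts are not read against the shares of all genes. *Nmu* was higher in colon by 4.03 ± 0.88 and 3.59 ± 0.87 (6.01 without male brain replicate 2, 6.28 without female cerebellum replicate 2), whereas the neuropeptide genes *Npy* (-7.66 ± 0.56 and -6.85 ± 0.56) and *Penk* (-5.56 ± 0.42 and -3.31 ± 0.38) were lower. *Vip*, a peptide of enteric and cortical neurons, differed from brain by 0.32 ± 0.21, which did not pass (adjusted P = 0.197), and was higher than in cerebellum by 4.72 ± 0.27. *Calcb* was higher than in brain (2.84 ± 0.72), on at most 22 counts per colon library. Its difference of 1.47 ± 0.65 from cerebellum lost the call in 9 of 12 fits that left out 1 library, and was 4.05 without male cerebellum replicate 3. Without the colon libraries with *Sis* and *Fabp6*, 4 of the list were higher than in cerebellum. *Gip*, *Gast*, *Ppy* and *Iapp* failed the filter on low counts.

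**Figure D4:**
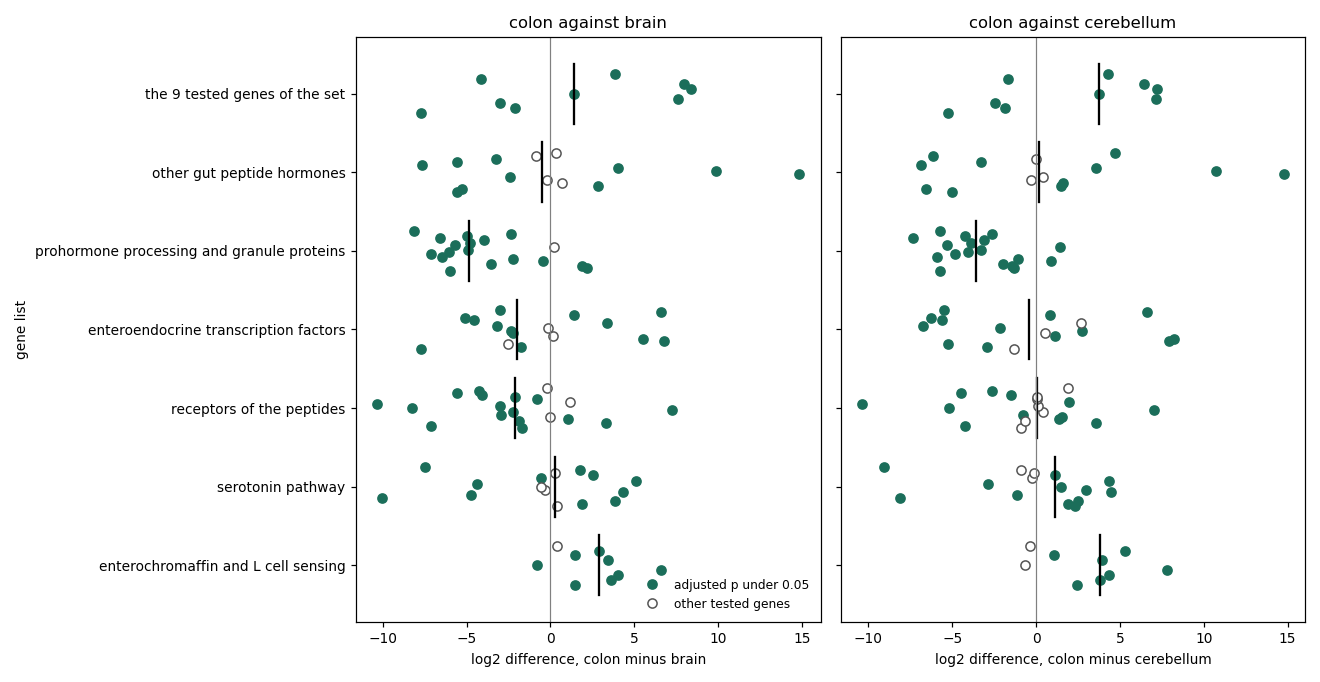
Log2 difference of colon minus brain (left) and colon minus cerebellum (right) for the tested genes of 7 lists. Filled points passed an adjusted P of 0.05, open points did not, and the vertical black line is the median of the list, which is -4.85 and -3.56 for the processing and granule proteins and 2.91 and 3.79 for the sensing genes.

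The receptors and degrading enzymes of the peptides differed one by one. Of 19 tested, 3 were higher than in brain and 13 lower (29.6% and 38.7% of all genes), with a median of -2.09. Against cerebellum 5 were higher and 7 lower, near the 28.9% and 37.3% of all genes, with a median of 0.05. *Npy4r*, a receptor of the peptide YY family, was higher by 7.25 ± 0.61 and 7.02 ± 0.60, or by 9.34 against cerebellum without the libraries with *Tph2*. *Dpp4*, the protease that inactivates GLP-1, was higher by 3.33 ± 0.50 and 3.54 ± 0.51. It had 4709 and 2751 counts in the colon libraries with *Sis* and *Fabp6* and 418 to 970 in the other 4, and the whole list summed to 728 and 462 CPM against 259 to 312 CPM. Without these 2 libraries *Dpp4* was higher by 1.62 and 1.84 and remained called. Whether small intestine in them set these values was not tested. *Glp2r*, the GLP-2 receptor, was higher by 1.05 ± 0.30 and 1.38 ± 0.30. *Glp1r*, the GLP-1 receptor, was lower than in brain (-1.88 ± 0.43), while its difference of -0.69 ± 0.43 from cerebellum did not pass (adjusted P = 0.167; it was 0.08 without male cerebellum replicate 3 and passed at -0.93 without male cerebellum replicate 2). *Ntsr2* and *Cckbr*, receptors of neurotensin and cholecystokinin, were lower than in brain (-10.32 ± 0.45 and -7.11 ± 0.44) and than in cerebellum (-10.39 ± 0.45 and -4.25 ± 0.44). *Sstr2*, a somatostatin receptor, was lower, at -4.10 ± 0.32 and -1.50 ± 0.32. *Sctr*, the secretin receptor, was called higher than in cerebellum (1.94 ± 0.76), a call lost in 5 of 12 fits that left out 1 library. The peptidase gene *Mme* was called higher than in cerebellum too (1.52 ± 0.63), with 623 and 355 counts in the colon libraries with *Sis* and *Fabp6* and 13 to 67 in the others. Without those 2 its difference was -0.92 from cerebellum, not called (adjusted P = 0.0610), and -2.43 from brain, called as lower (adjusted P = 2.35e-05). *Rxfp4*, the receptor of *Insl5*, and *Gcgr* failed the filter.

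Among the genes of serotonin handling, 6 of 15 tested were higher in colon than in brain and 5 lower, beside 29.6% and 38.7% of all genes, and 8 were higher and 4 lower than in cerebellum, beside 28.9% and 37.3%. *Tph2*, the neuronal counterpart of *Tph1*, was lower in colon, at -7.48 ± 1.24 and -9.07 ± 1.17, the opposite direction to *Tph1*. Its level in brain was 12.7 CPM in female replicate 1 and 1.23 to 2.13 CPM in the other 5 libraries, and without female brain replicate 1 the difference from brain was -6.71. Without the cerebellum libraries with *Tph2* over 10 CPM, the difference from cerebellum was -6.75. Only female colon replicate 2 held *Tph2* counts in colon (2), and without it the values were -9.10 and -10.70. *Tph2* remained called as lower in each of these fits. The enzyme genes downstream or beside it, *Ddc* (1.86 ± 0.38 and 1.87 ± 0.38, or 2.98 without the cerebellum libraries with *Tph2*), *Gch1* (3.84 ± 0.28 and 2.48 ± 0.26) and *Maoa* (5.09 ± 0.23 and 4.37 ± 0.22), were higher. *Slc18a1*, the vesicular transporter of enterochromaffin cells, was higher by 2.54 ± 0.34 and 1.15 ± 0.32. Of the 9 tested genes by which enteroendocrine cells sense their surroundings, 7 were higher than in brain and 7 higher than in cerebellum (29.6% and 28.9% of all genes), with medians of 2.91 and 3.79, beside -0.12 and -0.10 over all genes. They include the fatty acid receptors *Ffar4* (6.59 ± 0.91 and 7.79 ± 1.05) and *Ffar2* (4.06 ± 0.80 and 4.34 ± 0.86) and the irritant channel *Trpa1* (2.91 ± 0.57 and 5.30 ± 0.69, or 7.19 without male cerebellum replicate 3). *Gper1* was lower than in brain (-0.78 ± 0.32), a call lost in 5 of 12 fits that left out 1 library. Without the colon libraries with *Sis* and *Fabp6*, 6 of the 9 sensing genes were higher and 0 lower in each comparison. Against cerebellum, 6 were also higher without the libraries with *Tph2*.

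Of 16 tested transcription factors of the enteroendocrine lineage, 5 were higher and 8 lower than in brain, where 29.6% and 38.7% of all genes were, and 6 were higher and 7 lower than in cerebellum (28.9% and 37.3% of all genes). *Foxa1* was higher by 6.76 ± 0.61 and 7.95 ± 0.67, and *Rfx6* had 5 to 17 counts in the colon libraries and none in brain and cerebellum. *Rfx6* was also counted in testis (17, 18 and 18). In brain, *Foxa1* had 20 and 13 counts in female and male replicate 1 and at most 2 in the others, and its difference was 8.12 and 9.24 without each of them. The others higher than in brain were *Foxa2* (5.50 ± 0.86, or 8.20 without female brain replicate 1), which passed the filter on colon counts alone and so had to differ, *Rest* (1.40 ± 0.14), a repressor of neuronal genes, and *Neurog3*, the factor that starts the lineage (3.34 ± 1.26). *Pax6*, which activates *Gcg* in endocrine cells, was lower, at -5.06 ± 0.27 and -6.28 ± 0.27. *Neurog3* had 4 and 9 counts in the colon libraries with *Sis* and *Fabp6* and 0 to 2 in the other 4, and without those 2 its difference from brain was 1.77 and not called (adjusted P = 0.304).

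No sex difference was called in any of the 9 tested genes, in colon (0.324% of all genes called, 0.0903% as higher in males and 0.234% as lower) or in brain (0.0368%, 0.0201% and 0.0167%), and the interaction of sex with tissue was not called for any of them either (0.00669%). In colon and in the interaction the largest difference was in *Nts*, which in female and male colon was 23.2 ± 13.3 and 14.3 ± 7.12 FPKM and in brain 5.01 ± 1.59 and 7.43 ± 0.968 FPKM (SD, n = 3 each). Its interaction, the male minus female difference in colon minus that in brain, was -1.46 ± 0.60 on the log2 scale with an unadjusted P of 0.0235 and an edgeR adjusted P of 0.647. Without female colon replicate 1, one of those with *Sis*, it was -0.95. The first place of *Nts* did not hold in every fit that left out 1 library. In those fits the colon difference was -1.32 to -0.31 for *Nts* and -0.85 to -0.37 for *Tph1*. The interaction reached -3.01 for *Sct* and -2.39 for *Gcg*, beyond -1.96 for *Nts*.

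Across the 29 libraries, the genes most like each of the 9 were found by Pearson's correlation of log2 CPM, a description in which tissue differences dominate. The nearest to *Sst* were *Oprk1* (r = 0.977), *Syt6* and *Sstr1*, the last a somatostatin receptor, and the nearest to *Cck* were *Cdk5r2* (0.983), *Nrsn1* and *Lrrtm4*. *Chgb* was most like *Ugt8a* (0.976), *Pcsk1* (0.969) and *D130043K22Rik*, and *Chga* most like *Efhd2* (0.970), *Ugt8a* and *Tmem150b*. For the colon genes the nearest were *3100003L05Rik* for *Gcg* (0.970), *Gm16233* for *Pyy* (0.979), *Myo19* for *Sct* (0.977), *Neu1* for *Tph1* (0.933) and *Actr2* for *Nts* (0.951).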

How the data were processed

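Ribosomal RNA was removed from total RNA, and strand-specific libraries were sequenced on an Illumina platform. Per the labels' processing notes, the authors used HISAT2 2.0.5, featureCounts 1.6.3 and build mm10, and they deposited whole-number read counts per gene without normalization, 1 column per library, over an annotation that joins Iso-seq loci with ENSEMBL genes. Whether reads were counted by strand is not given in the sources used here. All 29 count columns were read, and the table held 0 further columns of samples. A deposited map pairs ENSEMBL gene identifiers with Iso-seq loci, and symbols were matched to the identifiers with a reference table of gene names.

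FPKM was computed as CPM, from the library total, per kilobase of a gene's exon union. Depth was 11742417 to 36194255 counts. Differences were tested in edgeR 4.0.16 (R 4.3.3), with TMM scaling, its filter on low counts by group, 1 joint fit in which each of the 10 groups had its own mean, and Benjamini-Hochberg adjustment over 29911 genes. The SE was derived from the fold change and the F statistic. The fit was tested on simulated counts. Libraries were taken as independent, since the animal behind each is not stated, so P-values measure only the spread between libraries. Libraries of the same replicate number did not deviate together (18 pairs, r from -0.174 to 0.0847), and no 2 libraries of a group held the same counts.

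The 10 genes and all gene lists were chosen with earlier results of these data known. Named are the 10 genes, list genes among the 4 with the largest called change in each direction or bearing on a member (among them *Pcsk1*, *Pam*, *Glp1r*, *Glp2r*, *Sstr2*, *Vip*, *Ddc*, *Trpa1*, *Rest*, *Mme*, *Sctr*, *Calcb* and *Gper1*), and the genes most correlated with each member. Of the list genes that fall under this rule, 1 is not reported here. List genes outside this rule and the marker genes were named after their values were seen. Alternatives were other scaling and filters, DESeq2 1.42.0, blocks, subsets of tissues and leaving out each library. Leaving out libraries by *Tph2*, or by *Fabp6* and *Sis*, was added after the data were seen.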

Additional observations from a re-analysis of the deposited data

Results flagged for a closer look

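Within brain, cerebellum, colon and heart, over both sexes, the highest or lowest library of each gene was compared with the others by Dixon's ratio. Ovary and testis, with 3 libraries each, were not compared. In 36 sets of values, 8 values stood apart, where chance gives about 1 in 20 for a measure that varies smoothly. In cerebellum, *Gcg* was at 0.678 FPKM (26 counts) in female replicate 2, the library that also held *Hoxb8*. In colon, *Sst* was at 14.8 FPKM in female replicate 1, a library with small intestinal genes. In brain, *Sst* was at 138 FPKM in female replicate 3 and *Chgb* at 90.9 FPKM in male replicate 2. The other 4 rest on few counts, and for *Pyy*, *Insl5* and *Sst* among them the rest of the tissue held 0 counts, so that the ratio is 1 by construction and that rate does not apply. They are *Pyy* at 0.0616 FPKM in female brain replicate 1 (1 count), *Insl5* at 0.0382 FPKM in male brain replicate 2 (1 count), and *Sst* at 0.0687 FPKM (1 count) and *Chga* at 0.200 FPKM (9 counts) in female heart replicate 3.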

How the results depend on the processing

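Of 476 refitted log2 differences between colon and the brain regions, of the 9 genes without *Gcg* and *Pyy*, 475 kept their direction and call and 1 lost the call, *Sst* against cerebellum without the libraries with *Tph2*. Of 180 between brain and cerebellum, 16 lost the call, all of them for *Chgb*, and no called value reversed. Of 421 values of the sex comparisons, none became called. Counts of all genes called in the sex comparisons moved by over 1.5 times under several settings, while those of the tissue comparisons did not. With DESeq2, male against female colon gave 141 higher and 264 lower genes, male against female brain 44 lower, and the interaction of sex and tissue 37 higher and 40 lower, against 27, 70, 5, 0 and 2 with edgeR. The replicate block, in a fit with the replicate number as a term, gave 9 higher and 9 lower in colon and 3 lower in brain, and among the members it ended only the call of *Chgb* in brain against cerebellum (0.55, adjusted P = 0.0608). Whether the replicate numbers pair libraries of the same animal is not stated in the sources used here. A block by the decade of the library code within each sex, with single-digit codes together, gave 6 higher and 16 lower in colon. The 3 tissues fitted alone gave 8 lower in brain and 0 lower for the interaction, while no filter on low counts, or leaving out the colon libraries with *Sis* and *Fabp6*, gave 4 lower for the interaction. Leaving out each library in turn gave 16 to 45 higher and 27 to 94 lower genes in colon, 4 to 11 lower in brain, and 0 to 1 higher and 0 to 9 lower for the interaction. The cause of these shifts was not tested. With the longest transcript as the length, the colon mean was 15.8 FPKM for *Gcg* and 3.34 FPKM for *Tph1*. *Insl5* had at most 2 counts in any colon library, under the limit of 3, and a low level and a shallow depth cannot be told apart there. Of the list genes, *Penk* moved to -6.27 against brain without female colon replicate 1 and *Ffar4* to 8.07 without female brain replicate 2, and both remained called.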
